A study of Rattus norvegicus with 8 samples.

Results

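Galectins are a family of small lectins that bind beta-galactoside sugars on glycoproteins. The transcripts of 5 genes of this family and its partners were followed in the periodontal ligament (PDL), the connective tissue between tooth root and jaw bone, of rats (Rattus norvegicus) at postnatal day 28 (P28) and at postnatal day 18 (P18). The 5 members, taken by symbol from the 17337 genes of the deposited count table, were Lgals1, Lgals3, Lgals8, Lgals9 and Lgals3bp. They were chosen by the measured level of Lgals3, which was higher at P28 than at P18, so its levels at both ages are given as a description, and nothing is concluded from a test of it. All 5 were detected in every library and passed the expression filter.

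Galectins are made in the cytoplasm and leave the cell without a signal peptide. Outside the cell they cross-link glycoproteins and form lattices with integrins and other receptors, while inside it some of them mark damaged lysosomes. Galectin-1 (Lgals1) is abundant in fibroblasts. Galectin-3 (Lgals3), whose long flexible tail lets it form oligomers, is well known from macrophages, osteoclasts and epithelia and is also made by cells of bone.

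The study compared the PDL on either side of the time when opposing teeth come into occlusal contact, which its design text places between both ages. Cervical PDL was cut out by laser micro-dissection from 4 P28 animals and 4 P18 animals, all untreated and raised under normal growth, and total RNA was sequenced with a low-input kit. The sources used here do not give strain, sex or genotype. Each library was taken as 1 animal. Total counts ran from 5252693 to 17803006 at P28 and from 10863769 to 26645656 at P18. The P28 replicate 4 library was the shallowest and the least like the rest of its age (correlation across genes of 0.750 to 0.766 with the other P28 libraries, against 0.813 to 0.827 among those). Of 10 ligament fibroblast markers 9 were detected in all 8 libraries, among them Postn and Col1a1. The exception was Aspn (asporin), at 0 in all 4 P28 libraries and at 0.0904 CPM or less at P18. Col1a2 was detected but read only 10.8 to 44.2 CPM over the 8 libraries, against 37290 to 82850 CPM for Col1a1. Whether such low readings reflect the tissue was not tested.

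Lgals3 was several-fold higher at P28. Its level, in TMM-scaled counts relative to library size (CPM), was 297, 165, 424 and 178 CPM in P28 replicates 1 to 4, against 41.4, 33.3, 51.1 and 75.6 CPM in P18 replicates 1 to 4. The lowest P28 library thus lay above the highest P18 library. The means were 266 ± 121 CPM at P28 and 50.3 ± 18.3 CPM at P18 (SD, n = 4 each), a log2 fold change of 2.40 ± 0.35 (SE), or 5.28-fold. Over the 8 fits that left out 1 library, the log2 fold change of Lgals3 stayed between 2.08 and 2.67. Of the 5 members, 1 (Lgals3) was called at an adjusted p under 0.05 in the fit over all genes, where 0.936% of 10472 genes were called. Since it was chosen for that call, nothing is read from this share. The Lgals3 call held in 6 of the 8 fits with a library left out (edgeR adjusted p up to 0.0585). It was lost without P18 replicate 2 and without P28 replicate 1. In bulk samples such as these, more cells of a type and more RNA per cell cannot be told apart.

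The spread of Lgals3 within P28 was wide, with replicates 1 and 3 high and replicates 2 and 4 low. The summed level of osteoclast genes showed the same split. It was, over 12 genes, 5800, 1258, 8222 and 2223 CPM in P28 replicates 1 to 4, against 1638 to 1975 CPM at P18. Acp5, an acid phosphatase of osteoclasts, read 1555, 147, 2632 and 235 CPM across P28 replicates 1 to 4 and 57.5 to 131 CPM at P18. It was the 1 gene called, higher, among 10 osteoclast genes tested (edgeR adjusted p = 0.0494), where 0.516% of all genes tested were called higher. Acp5 passed in 2 of 8 fits with a library left out. The call was also lost in edgeR with upper-quartile scaling and with the replicate block (adjusted p = 0.0517 and 0.151) and in limma-voom (adjusted p = 0.0712). Acp5 and the protease gene Ctsk made up most of the sum, and not every gene shared the split. The chloride transporter gene Clcn7 was highest in P28 replicate 2 (38.1 CPM), Tnfrsf11a (RANK) was higher in P28 replicate 4 than in P28 replicate 1 (11.0 and 4.82 CPM), and Car2 and Itgb3 had lower means at P28 than at P18. In P28 replicate 2 the osteoclast sum was below all 4 P18 libraries, while Lgals3 there was at 165 CPM, against 75.6 CPM in the highest P18 library. That low sum was mainly a matter of Ctsk, at 859 CPM there and 1351 to 1571 CPM at P18. Single genes went both ways in P28 replicate 2. Acp5, Nfatc1, Tcirg1 and Clcn7 were above every P18 library, and Ctsk, Car2 and Itgb3 below every P18 library. Calcr, the calcitonin receptor of osteoclasts, was at 0 in 3 of the 4 P28 libraries and in all 4 P18 libraries, and Oscar at 0 in 1 P28 and 2 P18 libraries. How much of the Lgals3 difference the osteoclast genes account for was not tested.

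The summed macrophage genes did not follow Lgals3 library by library, while some single genes did. The 16 markers summed to 2230, 794, 2730 and 2672 CPM in P28 replicates 1 to 4, against 948 to 1589 CPM at P18. Here too P28 replicate 2 was below every P18 library, and P28 replicate 4, with a sum close to that of replicate 3, was low in Lgals3. Of the 16 tested macrophage genes 0 were called by edgeR in either direction, and 5 had an unadjusted p under 0.05, as had 14.5% of all genes tested. DESeq2 called 1 of them higher and voom 0. Over all genes DESeq2 called 297 higher and 263 lower, and voom 175 and 132, against 54 and 44 by edgeR. Cd68, a lysosomal glycoprotein of phagocytes, had 191, 42.2, 239 and 88.4 CPM across P28 replicates 1 to 4, and Tyrobp, a signalling adaptor of myeloid cells, 444, 54.1, 512 and 137 CPM, both high in replicates 1 and 3 as Lgals3 was. The means of Cd68 were 140 ± 90.6 CPM at P28 and 47.6 ± 28.6 CPM at P18, and those of the complement gene C1qa 225 ± 103 and 90.2 ± 29.4 CPM (SD, n = 4 each; edgeR adjusted p = 0.228 and 0.0991). C1qa was highest in P28 replicate 4 (348 CPM), where Lgals3 was low. Of the 16 macrophage genes 14 had a log2 fold change above 0 and 2 below, Adgre1 and Cx3cr1 (-0.89 and -0.83). The only macrophage marker at 0 in any library was Msr1, in P28 replicate 4. The part of macrophages in the Lgals3 difference was not tested.

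**Figure D1:**
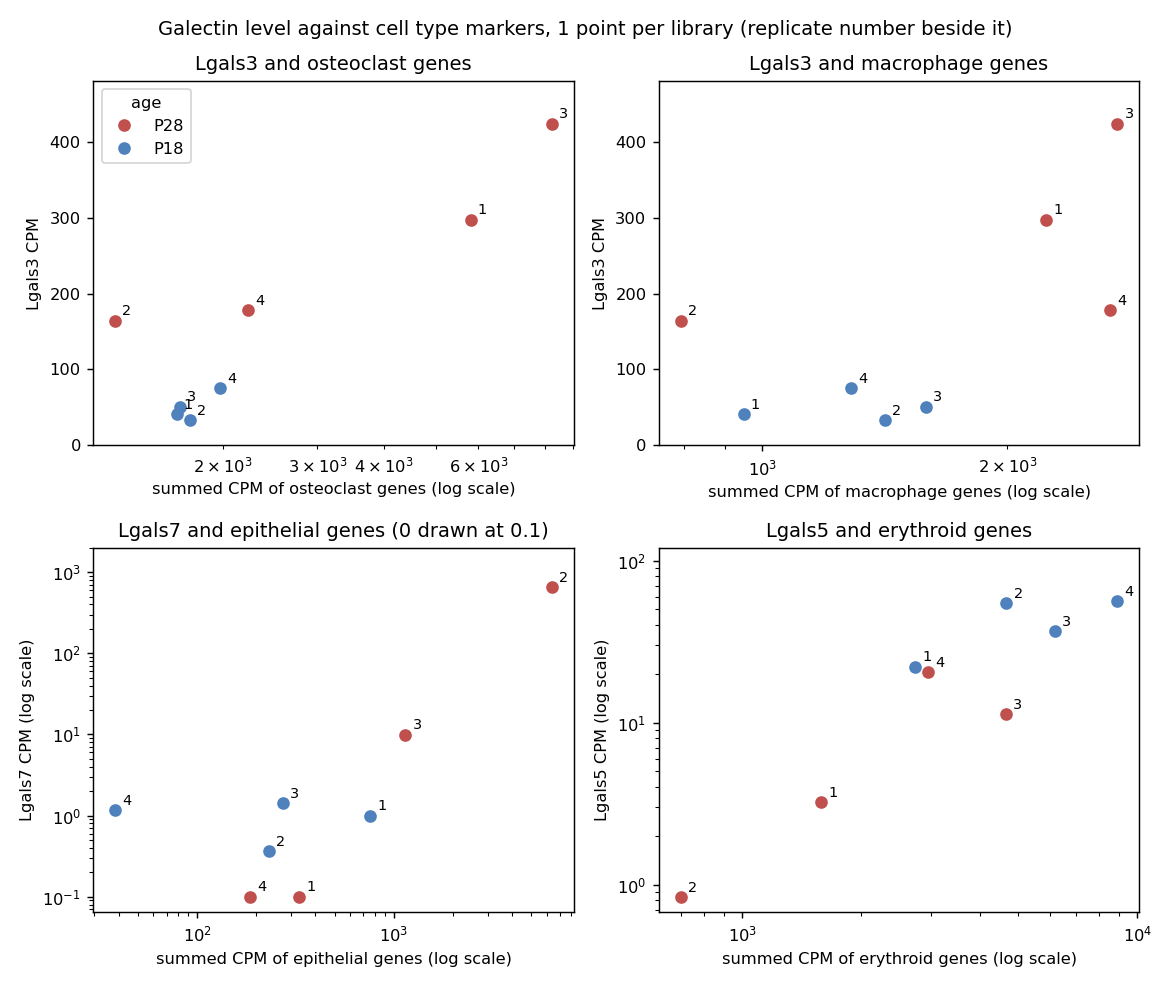
Each point is 1 library, numbered by replicate and coloured by age. The panels plot the CPM of Lgals3, Lgals7 or Lgals5 against the summed CPM of a marker list, all on log scales except the Lgals3 axes. P28 replicate 2 has the lowest osteoclast and macrophage sums and the highest epithelial sum. P28 replicates 1 and 2 are lowest both in the erythroid sum and in Lgals5. P28 replicate 3 is above P18 replicate 1 in the erythroid sum (4650 and 2745 CPM) but below it in Lgals5.

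Among 8517 other genes with a mean log2 CPM of at least 3, those whose log2 CPM was most like that of Lgals3 over the 8 libraries were Mt3 (Pearson r = 0.986), Emd, Tmem256, Mt2A, Kcnmb4, S100a6, Mlana and Rpain (r = 0.966). Mt3 and Mt2A are metallothioneins, Emd encodes the inner nuclear membrane protein emerin, Kcnmb4 a potassium channel subunit, and S100a6 a small calcium-binding protein. All 8 had a log2 fold change above 0 and 6 were called higher, where 0.516% of all genes tested were. They were picked for likeness to a gene chosen because it rose, so nothing is read from this count. The age difference enters each of these correlations, as do the shared libraries. Mt3 followed Lgals3 within an age as well (r = 0.971 over the 4 P28 libraries and 0.799 over the 4 P18 libraries), with 584, 145, 1041 and 99.5 CPM in P28 replicates 1 to 4. Emd had r = 0.940 and 0.936 within P28 and within P18, and S100a6 0.978 and 0.206. These genes were picked for high r over the same libraries, so the values within an age are a description only.

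**Figure D2:**
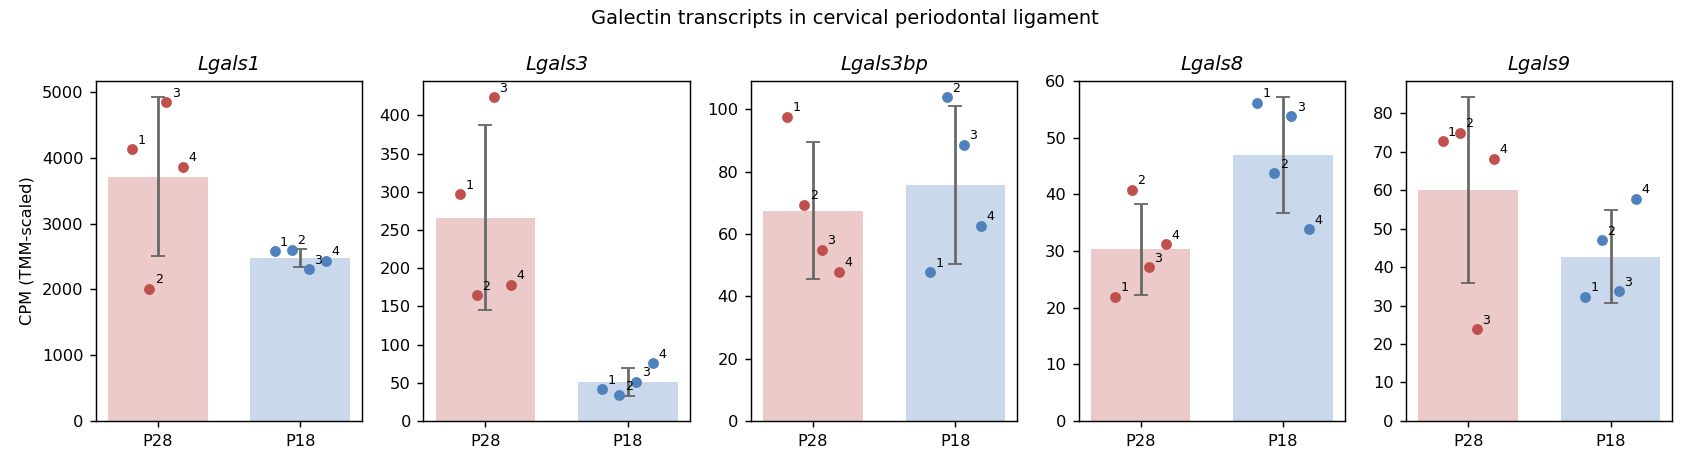
Level of the 5 galectin family members in CPM. Bars give the mean and error bars the SD of 4 libraries per age, and points the single libraries with their replicate number. Only for Lgals3 are all 4 P28 libraries above all 4 P18 libraries, and for Lgals1 P28 replicate 2 lies apart from the other P28 libraries.

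Lgals1 did not pass the test, although 3 of its 4 P28 values exceeded every P18 value. Galectin-1 is a non-covalent dimer that bridges cell-surface and matrix glycans. The level of Lgals1 was 4129, 2012, 4847 and 3868 CPM in P28 replicates 1 to 4, against 2584, 2604, 2310 and 2434 CPM in P18 replicates 1 to 4. P28 replicate 2 was the lowest of all 8 libraries. The log2 fold change was 0.58 ± 0.24 (SE; edgeR adjusted p = 0.281). Without P28 replicate 2 it was 0.79 and passed (edgeR adjusted p = 0.0366). The P18 libraries lay close together, at 2483 ± 138 CPM, against 3714 ± 1208 CPM at P28 (SD, n = 4 each).

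Lgals2 had nearly the same pattern as Lgals1. Lgals2 encodes galectin-2, another dimeric galectin, and both genes are on chromosome 7 in the RefSeq table (assembly GRCr8). Lgals2 stood at 34.7, 14.3, 51.8 and 43.3 CPM in P28 replicates 1 to 4, against 24.9, 23.4, 22.3 and 16.8 CPM in P18 replicates 1 to 4, with P28 replicate 2 again the lowest. Its log2 fold change was 0.72 ± 0.45 (edgeR adjusted p = 0.505). The correlation of Lgals1 with Lgals2 over the 8 libraries was 0.949, and 0.974 over the 4 P28 and 0.420 over the 4 P18 libraries. In the RefSeq table Lgals2 overlaps Cdc42ep1, and the sources used here do not state whether reads were counted by strand, so reads in that overlap cannot be assigned with certainty. The genes most like Lgals1 were Fkbp8, Vasn and Wdr92 (r = 0.972, 0.968 and 0.960). Vasn encodes vasorin, a membrane protein that binds TGF-beta.

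Lgals8 had a log2 fold change below 0 that did not pass the test. Galectin-8 carries a pair of sugar-binding domains in 1 chain and, in human cells, recruits autophagy receptors to broken vesicles. Its level was 21.9, 40.8, 27.2 and 31.2 CPM in P28 replicates 1 to 4, against 56.2, 43.8, 53.8 and 33.9 CPM in P18 replicates 1 to 4. The ages overlapped through P28 replicate 2 and P18 replicate 4. The log2 fold change was -0.63 ± 0.34 (edgeR adjusted p = 0.435), and between -0.81 and -0.50 leaving out 1 library. The genes most like Lgals8 over the 8 libraries were Slc39a8, a zinc and manganese importer, Rnf123 and Stip1 (r = 0.953, 0.941 and 0.922).

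Lgals9 encodes galectin-9, the other tandem-repeat member and one that interferons induce. Its level was 72.8, 75.0, 23.9 and 68.2 CPM in P28 replicates 1 to 4, against 32.4, 47.1, 33.7 and 57.8 CPM in P18 replicates 1 to 4. P28 replicate 3 was the lowest of all 8 libraries, and the other 3 P28 libraries were above all P18 libraries. The log2 fold change was 0.49 ± 0.38 and did not pass (edgeR adjusted p = 0.616). The gene most like Lgals9 was Cx3cl1, which encodes the chemokine fractalkine, with r = 0.976 over the 8 libraries, 0.984 over the 4 P28 and 0.983 over the 4 P18 libraries. Cx3cl1 read 25.2, 30.7, 4.65 and 18.5 CPM across P28 replicates 1 to 4, against 9.40, 14.2, 8.50 and 21.5 CPM in P18 replicates 1 to 4. RGD1559896 and Gphn followed (r = 0.921 and 0.920).

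The Lgals9 counts stand beside those of Lgals5, a neighbouring rat gene of the same family known from red blood cells and their precursors. The RefSeq windows of 250 bases before the start of each gene (GRCr8, minus strand) are shown because they let the likeness of both genes be seen. Lgals9 lies at chr10:64428071-64428320 and Lgals5 at chr10:64355138-64355387. Capitals mark runs of at least 15 bases that are identical in the alignment of the pair.
Lgals9: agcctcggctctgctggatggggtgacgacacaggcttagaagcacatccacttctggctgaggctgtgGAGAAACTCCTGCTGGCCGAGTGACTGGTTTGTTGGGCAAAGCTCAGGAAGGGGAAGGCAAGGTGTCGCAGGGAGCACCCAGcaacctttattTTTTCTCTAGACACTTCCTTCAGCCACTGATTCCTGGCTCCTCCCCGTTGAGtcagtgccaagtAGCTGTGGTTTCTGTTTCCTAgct
Lgals5: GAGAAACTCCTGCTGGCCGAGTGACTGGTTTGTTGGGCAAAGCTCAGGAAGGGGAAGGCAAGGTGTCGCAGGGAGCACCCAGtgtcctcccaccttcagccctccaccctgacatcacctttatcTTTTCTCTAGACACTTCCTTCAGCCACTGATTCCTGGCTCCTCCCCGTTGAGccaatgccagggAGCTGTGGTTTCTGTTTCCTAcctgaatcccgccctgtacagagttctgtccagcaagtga
The longest identical run was 82 bases. Of 319 alignment columns, gap columns counted, 175 were identical (54.9%). The other 27 pairs among the 8 galectin genes with a window gave 41.4% to 49.5%, counted in the same way. The windows of Lgals9 and Lgals5 are offset against each other, so many columns are gaps. The percentage therefore understates the likeness of the bases that align. No window was taken for Lgals1, Lgals3, Lgalsl or Lgals12.

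Lgals5 was lower at P28 in every library, unlike Lgals9. Its level was 3.23, 0.836, 11.3 and 20.4 CPM in P28 replicates 1 to 4, against 22.1, 54.7, 36.8 and 56.0 CPM in P18 replicates 1 to 4. All P28 libraries were below all P18 libraries, which held in either direction for 10.4% of the genes tested. The log2 fold change was -2.27 ± 0.78, and the test over all genes was not passed (edgeR adjusted p = 0.194; 0.0478 in the DESeq2 Wald test). Lgals5 held 4.25%, 1.10%, 32.0% and 23.0% of the CPM of the pair in P28 replicates 1 to 4, against 40.6%, 53.8%, 52.2% and 49.2% at P18. With the counts of Lgals5 added to those of Lgals9, the log2 fold change was -0.31 ± 0.33, the opposite sign to that of Lgals9 alone (edgeR adjusted p = 0.723). How the authors' counting split reads between these genes is not stated, and their transcripts were not compared here, so the direction of Lgals9 is uncertain.

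**Figure D3:**
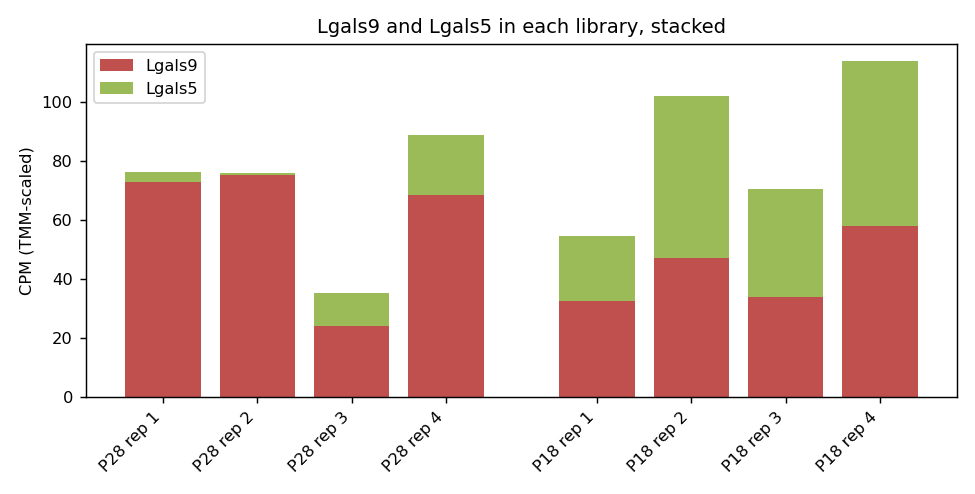
Stacked CPM of Lgals9 and Lgals5 in each library. The Lgals5 part is small in P28 replicates 1 and 2 and 40.6% or more of the pair in the P18 libraries, and the height of the stack overlaps between ages (35.2 to 88.6 CPM at P28, 54.5 to 114 CPM at P18).

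Erythroid genes had their lowest sums in P28 replicates 1 and 2, where Lgals5 was lowest too. A list written after the values of Lgals5 had been seen, of which 8 genes are in the table, summed to 1584, 699, 4650 and 2947 CPM in P28 replicates 1 to 4, against 2745, 4666, 6178 and 8902 CPM in P18 replicates 1 to 4. The other libraries did not keep the same order. P28 replicate 3 had a higher sum than P18 replicate 1 but less Lgals5 (11.3 against 22.1 CPM). Hbb alone made up most of the sum, at 565 to 3913 CPM at P28 and 2293 to 7459 CPM at P18. The haem synthesis gene Alas2 lay at 12.4 to 86.4 CPM at P28 and 66.3 to 463 CPM at P18. Of the 8 genes only Epb42 was at 0 in any library, in P28 replicate 4. The part of red cell RNA in the Lgals5 difference was not tested.

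Lgals3bp did not pass the test, and its P28 libraries all lay within the P18 range. It encodes a secreted, heavily glycosylated protein of the scavenger receptor family that binds galectin-3 and is induced by interferon. Its level was 97.7, 69.5, 55.0 and 47.9 CPM in P28 replicates 1 to 4, against 47.7, 104, 88.6 and 62.7 CPM in P18 replicates 1 to 4. The lowest and the highest of the 8 libraries were both P18 libraries. The log2 fold change was -0.17 ± 0.32 (edgeR adjusted p = 0.863), and its sign changed without P18 replicate 2 (0.01). Most like it were Atp13a2, a lysosomal transporter, Flcn (folliculin) and Uggt1, a glycoprotein folding sensor (r = 0.943, 0.941 and 0.929).

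The window before the start of Lgals3bp (RefSeq, GRCr8, chr10:104127849-104128098, minus strand) is shown because it holds, in capitals, the core letters of the interferon-stimulated response element, which are GAAA, any 2 bases and GAAA.
Lgals3bp: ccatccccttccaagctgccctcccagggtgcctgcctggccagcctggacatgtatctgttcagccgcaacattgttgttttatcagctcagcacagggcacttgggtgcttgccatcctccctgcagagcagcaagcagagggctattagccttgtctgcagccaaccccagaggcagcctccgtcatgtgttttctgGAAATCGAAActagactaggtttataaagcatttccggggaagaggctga
The motif was chosen after this window had been read. Searched on both strands, it was found in 3.41% of 33469 windows of the same length. Of the 8 galectin windows those of Lgals3bp, Lgals9 and Lgals5 held it, the last pair in a shared run (TTTCTGTTTC). The AP-1 letters TGANTCA (6.34% of windows) were found only in the Lgals9 window among the 8, where no other motif searched overlaps them, and the STAT letters TTCNNNGAA (7.67%) in none of the 8. A match describes letters only.

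Interferon-induced genes were set beside Lgals3bp and Lgals9. Of 16 tested, 0 were called higher (1 by DESeq2 and 1 by voom) and 1 lower, where 0.516% of all tested genes were called higher and 0.42% lower, and the median log2 fold change was 0.49, against 0.01 over all genes tested. The called gene was Rsad2 (viperin), at 2.51 ± 2.70 CPM at P28 and 34.7 ± 10.2 CPM at P18, which is -3.77 ± 0.76 on the log2 scale (edgeR adjusted p = 0.0423). With any 1 library left out the call was lost in 7 of 8 fits (edgeR adjusted p up to 0.140), the exception being P28 replicate 3. Ifi27, a mitochondrial interferon-induced protein, lay at 721 ± 149 CPM at P28 and 390 ± 69.5 CPM at P18 (log2 fold change 0.89 ± 0.21, edgeR adjusted p = 0.0727), and Irf9, a subunit of the interferon-activated factor ISGF3, at 32.4 ± 14.99 and 16.2 ± 6.91 CPM (edgeR adjusted p = 0.393). The 19 genes summed to 796 to 1411 CPM at P28 and 633 to 749 CPM at P18. Ifi27 alone made up most of this sum, at 522 to 872 CPM at P28 and 328 to 490 CPM at P18. The sum therefore describes mainly that gene and not the list.

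Lgals7, the galectin of stratified epithelia, was at 0, 649, 9.95 and 0 CPM in P28 replicates 1 to 4, against 0.994, 0.360, 1.41 and 1.17 CPM in P18 replicates 1 to 4. In P28 replicate 2 it had 6217 counts, against at most 122 in any other library. Its log2 fold change of 7.39 ± 2.13 did not pass (edgeR adjusted p = 0.124) and was 1.76 without P28 replicate 2 and 1.16 with voom. The summed epithelial genes (9 in the table) were 6356 CPM in P28 replicate 2 and 185 to 1147 CPM in the other P28 libraries, against 38.4 to 757 CPM at P18, with Krt17 at 1805 CPM in P28 replicate 2 and 15.03 CPM or less in the other P28 libraries. Krt15 was at 0 in P28 replicates 1 and 4 and in all P18 libraries. P28 replicate 2 was thus the highest in Lgals7 and in epithelial genes and the lowest in Lgals1.

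Lgalsl, which encodes a galectin-related protein thought not to bind lactose, read 42.5, 113, 50.4 and 15.6 CPM across P28 replicates 1 to 4, against 42.2, 59.01, 44.8 and 74.8 CPM in P18 replicates 1 to 4 (log2 fold change 0.01 ± 0.48, edgeR adjusted p = 0.996). Lgals4 had 65 counts in P28 replicate 1 and 0 in the other 7 libraries, and Grifin, a lens galectin relative, at most 23 counts in a library. Lgals12, a galectin of fat cells, had 0 counts in all 8, which allows 0.108 to 0.624 CPM depending on the depth of the library. Lgals4, Grifin and Lgals12 did not pass the expression filter. Of the 7 galectin genes outside the members, 4 were tested and 0 were called by edgeR (2 at an unadjusted p under 0.05, against 14.5% of all genes tested, and 1 called by DESeq2).

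**Figure D4:**
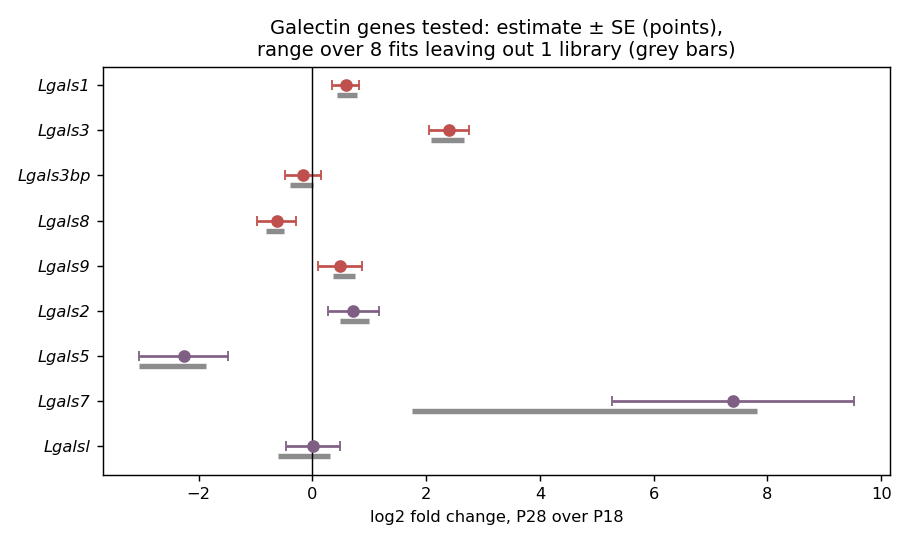
Log2 fold change, P28 over P18, of the 9 galectin genes tested, with SE from edgeR, and the range over 8 fits that each left out 1 library (grey). The Lgals3 range lies above 2, and the Lgals7 range extends from 1.76 to 7.81.

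The enzymes that build galectin ligands were tested as 2 lists. N-glycan branching enzymes add the galactose-ended arms to which galectins bind. Of 14 tested, 0 were called by edgeR (2 at an unadjusted p under 0.05, a share close to the 14.5% of all genes tested, and 1 called by DESeq2), and 11 had a log2 fold change below 0, with a median of -0.27. Fut8, which adds the core fucose, read 8.16, 14.9, 1.22 and 4.37 CPM across P28 replicates 1 to 4, against 55.1, 17.2, 36.5 and 55.8 CPM in P18 replicates 1 to 4 (log2 fold change -2.52 ± 0.71, edgeR adjusted p = 0.117). All P28 libraries of Fut8 were below all P18 libraries, and the ages did not overlap for 10.4% of all genes tested. The galactosyltransferase gene B4galt2 and the mannosidase gene Man2a2 gave log2 ratios of -0.66 ± 0.28 and -0.68 ± 0.40 (edgeR adjusted p = 0.295 and 0.485). Of 10 tested genes for sialic acid capping and O-glycan cores 0 were called by edgeR or DESeq2 (1 at an unadjusted p under 0.05), with a median of 0.29. St3gal2, a sialyltransferase, read 40.8, 42.3, 38.7 and 39.3 CPM across P28 replicates 1 to 4, against 23.9, 20.1, 18.2 and 23.4 CPM in P18 replicates 1 to 4 (log2 fold change 0.92 ± 0.34, edgeR adjusted p = 0.235). St3gal6 and St3gal5 gave log2 ratios of 0.94 ± 0.59 and 0.40 ± 0.31 (edgeR adjusted p = 0.510 and 0.615).

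Of 22 tested glycoproteins that bind galectins or sit with their ligands, 1 was called higher and 0 lower, with a median log2 fold change of 0.07. Of all genes tested 0.516% were called higher and 0.42% lower. The called gene was Cd9, a tetraspanin that organises integrins in the membrane. Cd9 read 1623, 1575, 1605 and 1545 CPM across P28 replicates 1 to 4, against 578, 702, 663 and 772 CPM in P18 replicates 1 to 4. Its P28 libraries lay close together (1587 ± 34.4 CPM, SD, n = 4), and all were above the P18 libraries. The log2 fold change was 1.23 ± 0.16 (edgeR adjusted p = 0.00681), and the call ended only without P18 replicate 2 (edgeR adjusted p = 0.0577) among the 8 fits that left out 1 library. Cspg4 (NG2), a proteoglycan of pericytes that binds galectin-3, lay at 97.9 ± 38.8 CPM at P28 and 34.8 ± 9.31 CPM at P18, and the hyaluronan receptor Cd44 at 131 ± 22.8 and 69.2 ± 10.2 CPM (edgeR adjusted p = 0.0714 and 0.0773). For Cspg4 and Cd44, too, all P28 libraries were above all P18 libraries. The ages did not overlap for 3 genes of this list, and for 10.4% of all genes tested. DESeq2 and voom called both genes. Each called 4 of the list higher, in fits that called 297 and 175 genes higher over all genes. Itgb1, the integrin beta-1 chain, gave a log2 ratio of -0.28 ± 0.18, and Lamp1, a lysosomal membrane glycoprotein rich in galectin ligands, one of 0.04 ± 0.20 (edgeR adjusted p = 0.528 and 0.953).

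Of 13 tested genes of the response to damaged lysosomes, where galectin-3 and galectin-8 act as sensors, 0 were called by edgeR or DESeq2 (1 at an unadjusted p under 0.05), with a median log2 fold change of -0.12. The lowest p were those of Vcp, an ATPase that extracts ubiquitinated proteins, at 320 ± 26.1 CPM at P28 and 463 ± 78.7 CPM at P18, of the autophagy receptor Sqstm1 at 510 ± 182 and 364 ± 29.2 CPM, and of Tax1bp1 at 130 ± 44.7 and 187 ± 33.8 CPM (edgeR adjusted p = 0.188, 0.373 and 0.410).

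Markers of further cell types were set beside the galectins. Genes of Trem2-type macrophages, among which galectin-3 is itself a marker, summed to 3206 to 4698 CPM at P28 and 2265 to 3275 CPM at P18 over 9 genes. Of 9 tested, 0 were called by edgeR (3 at an unadjusted p under 0.05, against 14.5% of all genes tested), and 8 had a log2 fold change above 0. DESeq2 called 3 of the 9 higher and voom 1, in fits that called 297 and 175 genes higher over all genes. Spp1 (osteopontin) read 334, 246, 719 and 80.9 CPM across P28 replicates 1 to 4, against 37.3, 63.3, 9.74 and 68.3 CPM in P18 replicates 1 to 4, and Gpnmb at 173 ± 74.0 CPM at P28 and 55.6 ± 27.4 CPM at P18 (edgeR adjusted p = 0.0579 and 0.0958). The lysosomal protease gene Ctsd gave a log2 ratio of 0.73 ± 0.21 (edgeR adjusted p = 0.132). Apoe and Ctsb made up most of the Trem2-type sum, and Fabp5 added 590 CPM to it in P28 replicate 2. Trem2 itself lay at 33.2 ± 16.8 CPM at P28 and 24.9 ± 18.2 CPM at P18 (edgeR adjusted p = 0.828). The gene of this list with a log2 fold change below 0 was Lpl (-0.87). Osteoblast and cementoblast genes summed to 5133 to 10430 CPM at P28 and 3959 to 6038 CPM at P18, with P28 replicate 3, the highest in Lgals3, the lowest of the P28 libraries. Of 9 tested, 1 was called higher, the bone matrix gene Bglap (osteocalcin), where 0.516% of all genes tested were called higher and 0.42% lower. Bglap lay at 1722 ± 820 CPM at P28 and 373 ± 134 CPM at P18 (edgeR adjusted p = 0.0264, passing in 4 of 8 fits with a library left out). Ligament fibroblast genes summed to 131600 to 183000 CPM at P28 and 86420 to 129500 CPM at P18, most of it from Col1a1 and Col3a1. Fmod (fibromodulin), a collagen-binding proteoglycan, was called higher, at 345 ± 62.2 CPM at P28 and 44.1 ± 40.4 CPM at P18, and Tnmd (tenomodulin), a tendon and ligament glycoprotein, lower, at 104 ± 36.9 and 560 ± 119 CPM (edgeR adjusted p = 0.0264 and 0.00608). The Fmod call held in 4 of 8 fits with a library left out and the Tnmd call in all 8. Endothelial genes summed to 793 to 1451 CPM at P28 and 783 to 1115 CPM at P18. Of 8 tested, 0 were called by edgeR, with 4 log2 fold changes above 0 and 4 below. Pecam1 lay at 192 to 310 CPM at P28 and 117 to 145 CPM at P18 (edgeR adjusted p = 0.0518), and DESeq2 and voom called it higher. Cdh5 and Tek gave log2 ratios of -0.91 ± 0.49 and -0.68 ± 0.41 (edgeR adjusted p = 0.426 and 0.495). Neutrophil genes summed to 25.6 to 297 CPM at P28 and 36.6 to 947 CPM at P18, and lymphocyte genes to 11.1 to 42.4 and 21.2 to 123 CPM. Enamel organ genes ran from 5.62 to 638 CPM at P28 and from 15.1 to 4858 CPM at P18. Ambn (ameloblastin) and Amtn (amelotin) were called lower, Ambn at 1.06 to 4.58 CPM at P28 and 9.72 to 2329 CPM at P18 (edgeR adjusted p = 0.0204), and Amtn at 0 in 3 P28 libraries and 0.815 to 144 CPM at P18 (edgeR adjusted p = 0.0188). Their calls held in 6 and 5 of 8 fits with a library left out, and both were lost in limma-voom (adjusted p = 0.557 and 0.266), the Ambn call also in edgeR with the replicate block (adjusted p = 0.103). The T cell genes Cd3d and Cd3e were at 0 in 3 libraries of each age, the neutrophil gene Ltf was at 0 in all 8, and the enamel gene Klk4 was at 0 in all 4 P28 libraries and 1 P18 library. The part of these cell types in the galectin differences was not tested.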

How the data were processed

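Raw counts, 1 row per gene symbol, were deposited by the authors. HTSeq 0.9.1, STAR 2.5.3a, edgeR 3.16.5 and the build rn6 are named in the submitters' processing notes. The sources used here give no annotation or strand setting, and 40 columns of other samples were not used.

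The counts were fitted with edgeR 4.0.16 in R 4.3.3 (quasi-likelihood test, 2-sided, TMM scaling, age as the only term, minimum count 10), and p-values were Benjamini-Hochberg adjusted over all 10472 genes tested (threshold 0.05). SE is the size of the log2 fold change over the root of F. Log2 CPM used a prior count of 2, and limits from 0 counts allow 3 counts and cover counting error only. On simulated counts of this comparison (5 draws, 10252 genes tested in the first), 9.6% of 2-fold and 64.4% of 4-fold changes were called, and 3.9% of calls were false. The draws took the fitted dispersions as true. Changes were planted only in genes with a mean above 10 CPM, so the shares called do not cover genes with lower levels. Alternatives were DESeq2 1.42.0 size factors and Wald test, upper-quartile scaling, voom with quality weights (limma 3.58.1), no filter, a replicate block and leaving out each library.

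Members and lists were chosen with earlier results of these data known. Named genes were all galectin genes, the 3 lowest p and all calls of each list, and the genes most like Lgals3 (8) or another member (3). Further genes were named after their values were seen: Cdc42ep1, Itgb1, Lamp1, Alas2, Trem2 and list markers given for being at 0 or high in 1 library. Others were genes that dominated a list sum or departed from the rest of their list. For the cell type lists the summed levels are given in place of some named genes. Of 200 list symbols, 190 were in the table. Windows and neighbouring genes came from RefSeq (GRCr8), whose coordinates are not those of rn6. Windows were aligned with Biopython 1.88.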

Additional observations from a re-analysis of the deposited data

Results flagged for a closer look

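Within the 21 groups of 4 libraries examined over the galectin genes, 4 held a library far from the others by Dixon's ratio. Chance flags about 1 in 20 such groups, but for Lgals4 and Grifin the ratio is at its maximum by construction, since the other 3 libraries were at 0. Lgals7 was far higher in P28 replicate 2 (649 CPM) than in the next P28 library (9.95 CPM). Lgals9 was far lower in P28 replicate 3 (23.9 CPM) than in the next (68.2 CPM). Lgals4 was detected in P28 replicate 1 alone among the P28 libraries (3.82 CPM, 65 counts). Grifin was detected in P28 replicate 2 alone among them (0.731 CPM, 7 counts).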

How the results depend on the processing

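All libraries together gave 54 genes called higher and 44 lower, 8 of them in the lists other than galectins. The DESeq2 Wald test gave 297, 263 and 24, voom 175 and 132, and the replicate block 16 and 10. Leaving out 1 library gave 4 to 110 higher, 5 to 105 lower and 2 to 12 in the lists. The higher and lower counts were lowest without P18 replicate 2 (4 and 5) and P28 replicate 1 (8 and 8). They were highest without P28 replicate 4 (110 and 105), which was not the fit with the most calls in the lists. Further counts were 30 and 26, 12 and 11, and 14 and 10 without P18 replicates 1, 3 and 4, and 18 and 13 without P28 replicate 3. Those without P28 replicate 2 lay within the ranges given. Replicate numbers are shared between ages but did not pair the libraries (same-number correlations of -0.02 to 0.002). Lgals3, given as a description, had log2 fold changes of 2.08 to 2.67 leaving out 1 library, and its call held in 6 of 8 such fits. Lgals1 ran from 0.43 to 0.79 and passed only without P28 replicate 2, and Lgals3bp from -0.40 to 0.0132, the highest without P18 replicate 2. Lgals9 was -0.31 with Lgals5 counts added, an alternative chosen after seeing the data. Lgalsl was -0.0062 with upper-quartile scaling, -0.10 with voom, -0.0003 with no filter, -0.22 with the replicate block and -0.60 to 0.32 leaving out 1 library. Krt17 ran from -1.11 to 5.02, the lowest without P28 replicate 2. The causes were not tested. Depth limits the genes with few counts, Lgals4, Lgals12 and Grifin among them. Of the values of single genes other than the members, 609 kept their direction and side of the threshold, 35 newly passed it, 34 lost it and 8 changed sign.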
